A study of Mus musculus with 53 samples.

Results

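YM-155 was compared with its vehicle in tumours of murine mammary cells grown in NSG mice, over both forms of the tumour cells. The comparison took 12 of the 53 libraries of the series, chosen by their column names in the YM-155 expression table: 6 from YM-155 tumours and 6 from vehicle tumours, with 3 of each treatment in WGD- and 3 in WGD+ tumours. WGD- and WGD+ name TA3Hauschka cells engineered without and with whole genome doubling. The cells were placed in 50% Matrigel in the inguinal mammary fat pad of female mice that were 6 weeks old, and the mice received vehicle or YM-155 for 14 days. The labels give no dose and no vehicle composition. All 12 hosts carried, on the NOD.Cg background, the Prkdcscid and Il2rgtm1Wjl alleles that remove lymphocytes, and the transgene Tg(CMV-IL3,CSF2,KITLG)1Eav/MloySzJ, in which the CMV promoter drives human cytokines; the sample titles call this host NSG. The tumour form was taken from the titles, since the genotype field follows the treatment and goes against the titles in 12 of the 24 libraries of the YM-155 experiment. The labels do not say whether the 3 replicates of a group came from separate mice, and a p-value here speaks only to the spread among libraries, which may be technical.

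Survivin, the product of Birc5, is a member of the inhibitor of apoptosis (IAP) family. With Aurora B, INCENP and borealin it also forms the chromosomal passenger complex, which corrects chromosome attachment to the spindle and is needed for cytokinesis. YM-155 is a quinone found as a compound that lowers the activity of the survivin promoter. It enters cells through the membrane protein encoded by Slc35f2, and it has been linked to DNA damage. Levels below are log2(CPM + 1), where CPM is a read count scaled to the TMM-adjusted size of its library, and changes are YM-155 minus vehicle in those log2 units. The added 1 makes the change of a low gene look smaller than it is. A gene passed the test at a Benjamini-Hochberg adjusted p under 0.05 from limma over 13171 genes with more than 1 CPM in at least 3 of the 12 libraries.

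The promoters of survivin and of the 3 members of the BCL2 family that rose in WGD+ tumours are shown because the compound was selected on a promoter. Each sequence is the 250 bases before the start of the gene in RefSeq on GRCm38.p6, written 5′ to 3′ on the strand of the gene. Capitals mark GC boxes, searched as GGGCGG on both strands (CCGCCC on the other). The windows are chr11:117848987-117849236 on the plus strand for Birc5, chr7:45466899-45467148 on the minus strand for Bax, chr19:6941611-6941860 on the plus strand for Bad and chr1:93685325-93685574 on the plus strand for Bok.
Birc5: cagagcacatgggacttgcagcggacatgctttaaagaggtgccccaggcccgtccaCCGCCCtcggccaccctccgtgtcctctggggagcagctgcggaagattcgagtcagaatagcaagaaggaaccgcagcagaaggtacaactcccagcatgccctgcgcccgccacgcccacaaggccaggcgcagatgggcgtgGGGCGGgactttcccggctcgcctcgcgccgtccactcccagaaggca
Bax: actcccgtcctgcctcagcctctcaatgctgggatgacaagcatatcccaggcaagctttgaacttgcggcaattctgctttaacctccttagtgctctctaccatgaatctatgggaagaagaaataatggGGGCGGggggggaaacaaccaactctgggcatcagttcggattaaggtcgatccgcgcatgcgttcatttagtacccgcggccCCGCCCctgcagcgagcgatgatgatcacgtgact
Bad: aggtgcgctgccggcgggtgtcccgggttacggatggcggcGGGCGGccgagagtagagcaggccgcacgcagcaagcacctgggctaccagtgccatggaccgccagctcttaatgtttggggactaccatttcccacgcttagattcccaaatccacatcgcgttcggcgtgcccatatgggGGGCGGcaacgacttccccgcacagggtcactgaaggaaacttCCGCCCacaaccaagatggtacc
Bok: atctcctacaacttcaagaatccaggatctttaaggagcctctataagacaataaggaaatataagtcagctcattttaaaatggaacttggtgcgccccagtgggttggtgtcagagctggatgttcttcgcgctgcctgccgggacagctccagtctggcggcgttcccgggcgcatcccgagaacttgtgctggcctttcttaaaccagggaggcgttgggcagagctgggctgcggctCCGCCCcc
Birc5 and Bax each held 2 GC boxes, Bad held 3 and Bok held 1. Among 32851 promoter windows of the same length in the RefSeq table, 32.7% held at least 1, 16.7% at least 2 and 8.47% at least 3. A match says only that these letters are present. Transcripts of Sp1, a factor that recognizes the GC box, are given with the WGD+ results.

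The 12 libraries held between 6312094 and 7479520 assigned reads. In principal components, the first component took 27.4% of the variance. Each library was also scored by its highest correlation with any other library. That value was lowest, at 0.9795, for vehicle replicate 2 of WGD- and YM-155 replicate 2 of WGD+. Lymphocyte transcripts were scarce: 7 of 16 markers of mature T, B and NK cells were at 0 in all 12 libraries, and the list summed to between 0.430 and 2.60 CPM. Transcripts of the host and of the tumour are both murine and cannot be separated. In a bulk library, fewer cells of a type and less RNA per cell cannot be told apart.

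Over both forms, no gene passed the test of YM-155 against vehicle, with tumour form as a covariate. The 0 genes called higher (0% of those tested) and 0 called lower (0%) in limma compared with a smallest adjusted p of 0.475, and voom on reads recovered from the table also called 0. At an unadjusted p under 0.05 there were 1312 genes, of which 701 were higher with YM-155 (5.32%) and 611 lower (4.64%). Genes whose 3 YM-155 and 3 vehicle libraries did not overlap in WGD- and, in the same direction, in WGD+ tumours numbered 72 higher (0.547%) and 51 lower (0.387%). The median change over all genes tested was -0.0038.

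Birc5 itself, at chr11:117849251-117855743, did not pass the test, and its mean was above vehicle in both forms. In WGD- tumours its level was 6.75, 6.76 and 6.85 with vehicle and 6.70, 6.82 and 7.05 with YM-155. In WGD+ tumours it was 6.77, 6.98 and 6.77 with vehicle and 7.07, 7.52 and 6.89 with YM-155. The groups overlapped in both forms, and the highest of the 12 values was a YM-155 library of WGD+. The difference for Birc5 was 0.20 (SE 0.10, adjusted p 0.511) over both forms, 0.07 (SE 0.14, adjusted p 0.923) in WGD- and 0.32 (SE 0.14, adjusted p 0.191) in WGD+ tumours.

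**Figure D1:**
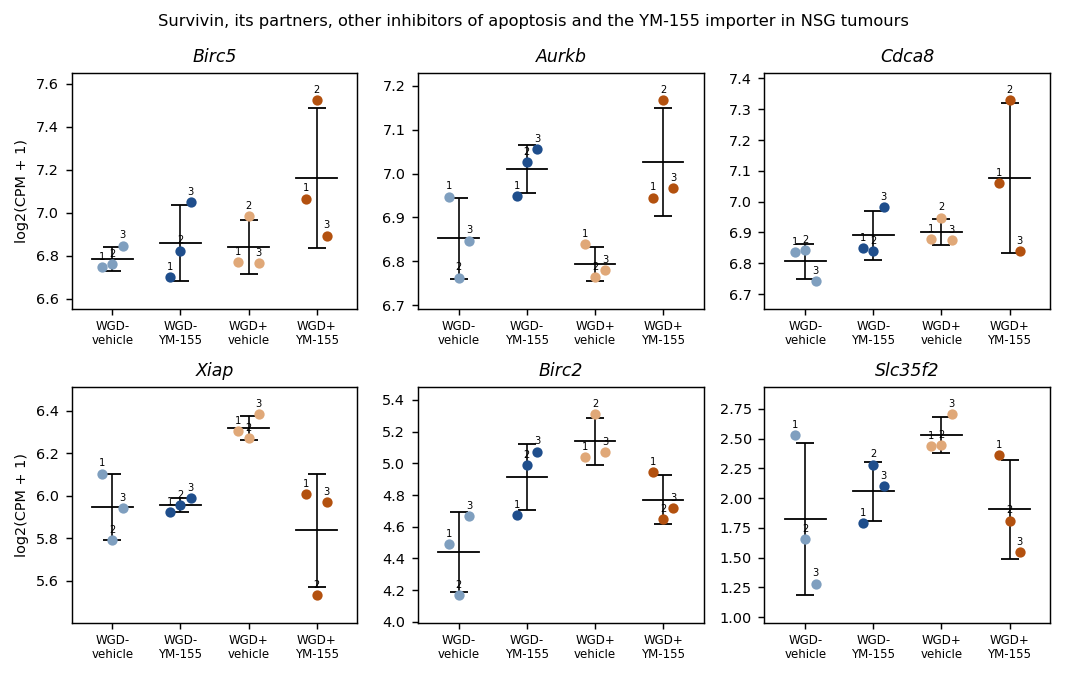
Level in log2(CPM + 1) (y axis) of Birc5, Aurkb, Cdca8, Xiap, Birc2 and Slc35f2 in each of the 12 libraries, by form and treatment (x axis); points are libraries numbered by replicate and bars are the mean ± SD of 3. Birc5 with YM-155 lies between 6.70 and 7.52, overlapping vehicle at 6.75 to 6.98, and Xiap in WGD+ tumours lies lower with YM-155 (5.53 to 6.01) than with vehicle (6.27 to 6.38).

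Partners of survivin in the chromosomal passenger complex had values above vehicle that did not pass the test. The 4 tested genes of the complex, Birc5, Aurkb, Incenp and Cdca8, had positive differences in WGD- and in WGD+ tumours, with a median of 0.16 over both forms. In WGD+ their mean level with YM-155 was 7.239, 7.449 and 7.167, highest in replicate 2. Their median difference of effects between the forms was 0.12, and 0.035 without that library. The fifth on the list, Aurkc, a kinase of germ cells, was at 0 in all 12 libraries. Aurkb, the Aurora B kinase, had levels of 6.95, 6.76 and 6.85 with vehicle and 6.95, 7.03 and 7.06 with YM-155 in WGD-, and 6.84, 6.76 and 6.78 against 6.95, 7.17 and 6.97 in WGD+. Vehicle and YM-155 libraries did not overlap for Aurkb in WGD+ and met at 6.95 in WGD-. The Aurkb difference over both forms was 0.20 (SE 0.07, adjusted p 0.494). For Incenp, the scaffold of the complex, it was 0.10, and for Cdca8, which encodes borealin, 0.13. None of the 4 passed, over both forms or in either form alone.

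None of the other IAP genes passed in either form or in the test of the difference between forms. The list median of that difference was -0.31, and 0.048 after the correction for transcript length and GC content. Xiap, which encodes a direct inhibitor of caspases, had levels of 6.10, 5.79 and 5.94 with vehicle and 5.92, 5.96 and 5.99 with YM-155 in WGD- tumours. In WGD+ tumours Xiap was at 6.30, 6.27 and 6.38 with vehicle and 6.01, 5.53 and 5.97 with YM-155, a difference of -0.48 (SE 0.13, adjusted p 0.0551) with no overlap. Birc2, which encodes the ubiquitin ligase cIAP1 of TNF signalling, was at 4.49, 4.17 and 4.67 against 4.67, 4.99 and 5.07 in WGD- and at 5.04, 5.31 and 5.07 against 4.94, 4.65 and 4.72 in WGD+. Thus its YM-155 libraries lay above or level with vehicle in WGD- (0.47, SE 0.16, adjusted p 0.386) and below it in WGD+ (-0.37, SE 0.16, adjusted p 0.188), and the difference between the forms was -0.84 (SE 0.23, adjusted p 0.099). Birc3 had 0.07 over both forms. Birc6, a giant ubiquitin-conjugating member, had -0.13 over both forms and -0.28 in WGD+, and both values were positive, 0.10 and 0.16, after that correction. Birc7 was at 0 in all 12 libraries.

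Genes that move or reduce YM-155 were also measured. Slc35f2, the importer, was at 2.53, 1.66 and 1.28 with vehicle and 1.79, 2.28 and 2.10 with YM-155 in WGD-, and at 2.44, 2.45 and 2.70 against 2.36, 1.81 and 1.54 in WGD+. Slc35f2 groups overlapped in WGD- and did not in WGD+, where the difference was -0.62 (SE 0.31, adjusted p 0.247). Abcb1b, an efflux pump of the P-glycoprotein family, had 0.47 (adjusted p 0.306) in WGD- and -0.31 in WGD+, a difference between forms of -0.78 (adjusted p 0.0865). Abcg2, another efflux pump, had -0.44 (adjusted p 0.13) in WGD+, and Nqo1, a quinone reductase, had 0.55 (adjusted p 0.132) there. None of the 7 genes on this list passed in any of the comparisons. Their median difference between the forms was -0.46, and -0.15 after the length and GC correction.

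By the rule for named genes, the pooled comparison gave 4 genes above and 4 below vehicle in both forms, all with an adjusted p of 0.475. The rule takes only genes whose YM-155 and vehicle libraries do not overlap in either form. That separation is therefore no further result. Tnfsf9, the 4-1BB ligand that costimulates T cells, was at 3.84, 3.71 and 3.99 with vehicle and 4.36, 4.45 and 4.29 with YM-155 in WGD-, and at 3.57, 3.31 and 3.96 against 4.21, 4.27 and 4.42 in WGD+. No vehicle library reached a YM-155 library of its form, and the Tnfsf9 difference over both forms was 0.60 (SE 0.12). S1pr1, the receptor for sphingosine-1-phosphate that stabilizes vessels, was at 3.16, 3.49 and 3.54 against 2.56, 2.24 and 2.48 in WGD-, and at 3.70, 3.66 and 3.54 against 3.15, 3.28 and 2.63 in WGD+. Its difference was -0.79 (SE 0.15).

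A second vascular gene had the same order. Flt1, a receptor for VEGF, was at 4.61, 4.53 and 4.78 against 4.45, 4.28 and 3.96 in WGD- and at 5.28, 4.90 and 5.07 against 4.38, 4.18 and 4.51 in WGD+, a difference of -0.57 (SE 0.12) over both forms. Plk2, a polo-like kinase and p53 target, was at 7.95, 7.96 and 7.97 against 7.81, 7.56 and 7.35 in WGD- and at 8.07, 8.25 and 8.36 against 7.99, 7.72 and 7.91 in WGD+. The WGD- vehicle values of Plk2 lay close together, and the difference was -0.37 (SE 0.09). Its lack of overlap in each form was again set by the rule. Kcne3, an accessory subunit of potassium channels, had -0.72 (SE 0.17). Above vehicle stood also Bax, described below, with 0.47 (SE 0.11), the prefoldin-like gene Pdrg1 with 0.41 (SE 0.10) and the ubiquitin ligase gene Rnf187 with 0.33 (SE 0.08).

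Several pathway lists leaned one way over both forms, none with a called member; beyond the first 2 of a list by p, members were chosen for naming after their values were seen. In the NRF2 list of antioxidant and NADPH genes, 15 of 15 members lay above vehicle (median 0.18, and 0.11 after the length and GC correction). In the list of MHC class I presentation genes 10 of 12 did (median 0.26, and 0.16 after the correction), with 4 at an unadjusted p under 0.05. They were H2-K1 (0.40), a class I heavy chain, Tapbp (0.34), the peptide-loading protein tapasin, and the immunoproteasome subunits Psmb9 (0.36) and Psmb10 (0.32). Among G2/M genes 15 of 17 lay above vehicle (median 0.10) and 7 had an unadjusted p under 0.05, all above, including Plk1 (0.28), Cdc20 (0.26), Ccnb2 (0.26) and Cdk1 (0.23), which drive entry into and exit from mitosis. All 17 DNA replication genes lay above vehicle by a median of 0.08 (14 of 17 and 0.052 under quantile normalization). All 11 immediate early genes lay below vehicle with a median of -0.29, with Nr4a1 at -0.58 and Dusp1 at -0.33. By form, 10 of these 11 lay below vehicle in WGD- (median -0.41) and 7 in WGD+ (median -0.11). DNA replication genes lay above vehicle for 14 of 17 in WGD- and 9 of 17 in WGD+, and G2/M genes for 17 and 9 of 17. Without vehicle replicate 2 of WGD- the medians were -0.19 for immediate early and 0.059 for G2/M genes. The 22 type I interferon genes had a median of 0.08, the 14 genes of the integrated stress response one of 0.03 and the 10 of the unfolded protein response one of -0.0057. By comparison the background at that unadjusted p was 5.32% above and 4.64% below.

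In WGD- tumours alone, no gene passed. There were 0 genes called higher (0%) and 0 called lower (0%) with limma, a smallest adjusted p of 0.102, and 0 with voom. At an unadjusted p under 0.05 there were 1291 genes, 461 higher (3.5%) and 830 lower (6.3%). The count rested on single libraries in part: without YM-155 replicate 1 of WGD-, 10 genes passed, without YM-155 replicate 2 of WGD+ 4 passed, and 1 passed without vehicle replicate 1 of WGD- or without vehicle replicate 2 or 3 of WGD+. The median change was 0.016.

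Markers of endothelial cells and fibroblasts were low in the YM-155 libraries of WGD- tumours. All 10 endothelial markers had negative values, with a median of -0.67, and 7 of 10 had an unadjusted p under 0.05, where the background of lower genes was 6.3%. Pecam1, the adhesion molecule CD31 of endothelium, was at 4.79, 5.14 and 4.96 with vehicle and 4.18, 3.91 and 3.80 with YM-155 (-0.998, SE 0.17, adjusted p 0.102). Cdh5, the cadherin of endothelial junctions, had -0.76 (adjusted p 0.183), Cldn5, a tight junction claudin, -0.96 and Kdr, the main VEGF receptor, -0.65. In WGD+ tumours Pecam1 was at 5.53, 5.08 and 5.07 against 4.63, 4.97 and 5.13, with overlap, and the endothelial median was -0.17 with 6 of 10 negative. The mean level of the 10 endothelial markers was 3.49 to 3.87 with vehicle and 2.70 to 3.21 with YM-155 in WGD-, and 3.76 to 3.91 and 3.27 to 3.98 in WGD+. Their sum was 150.5 to 207.5 CPM with vehicle and 93.0 to 120 CPM with YM-155 in WGD-, and 174 to 199 CPM and 124 to 214 CPM in WGD+. Over both forms the 10 markers were negative with a median of -0.39, and Pecam1 had -0.66 and Cdh5 -0.54 (adjusted p 0.475 each).

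Fibroblast and matrix markers gave the larger values. All 13 were negative in WGD-, with a median of -1.05, and 7 had an unadjusted p under 0.05. Lum, the collagen-binding proteoglycan lumican, was at 2.20, 2.87 and 2.37 with vehicle and at 1.01, 0.00 and 1.20 with YM-155 (-1.74, SE 0.35, adjusted p 0.102). Dcn, the related decorin, had -1.69 (adjusted p 0.202), and the collagen genes Col3a1 and Col1a1 had -1.92 and -1.25. In WGD+ the median of the list was -0.01, and for 13 of 13 members the value was more negative in WGD- than in WGD+, although no member passed the test of that difference. The mean level of the 13 markers was 5.66, 6.49 and 5.81 with vehicle and 5.56, 4.33 and 4.97 with YM-155 in WGD-, so replicate 1 of YM-155 lay close to vehicle.

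**Figure D2:**
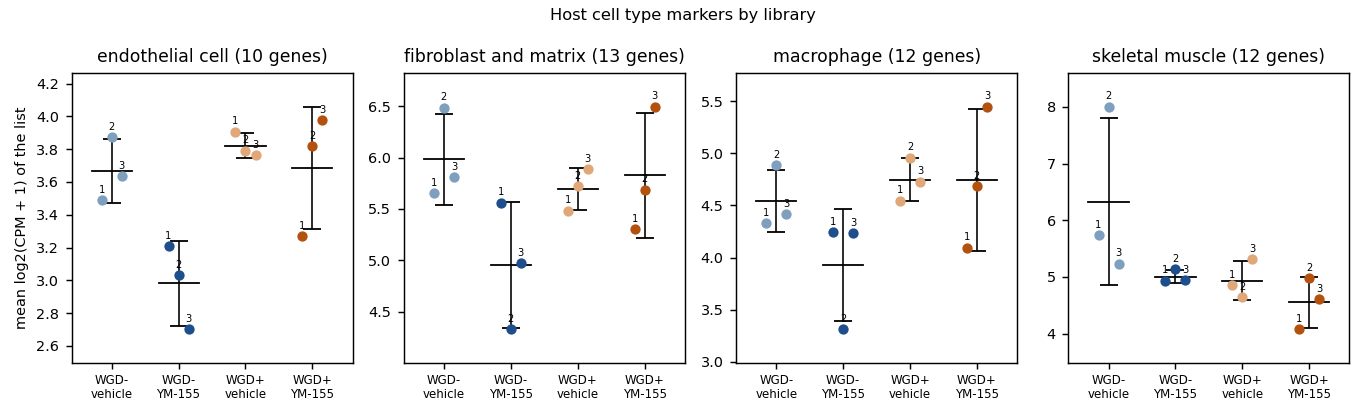
Mean level in log2(CPM + 1) (y axis) of the endothelial, fibroblast, macrophage and skeletal muscle marker lists in each library, by form and treatment (x axis); numbers give the replicate. In WGD- tumours the endothelial list is at 2.70 to 3.21 with YM-155 and at 3.49 to 3.87 with vehicle, while in WGD+ tumours the treatments overlap.

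Skeletal muscle and macrophage markers had negative medians in WGD- as well. Skeletal muscle genes had a median of -1.30 in WGD- with 12 of 12 negative, and their summed level ranged from 581 to 4756 CPM in the vehicle libraries and from 536 to 576 CPM in the YM-155 libraries. The 4756 CPM belonged to vehicle replicate 2. Without that library the medians were -0.53 for muscle, -0.77 for fibroblasts with 12 of 13 negative and 3 at an unadjusted p under 0.05, -0.54 for the endothelial list with 10 of 10 negative and 4 at that p, and -0.50 for macrophages. With all libraries, macrophage markers had a median of -0.69 with 11 of 12 negative, and C1qb, a complement subunit made by macrophages, had -0.96. The mean level of the 12 macrophage markers was 4.33, 4.89 and 4.42 with vehicle and 4.25, 3.31 and 4.24 with YM-155, so YM-155 replicate 2 lay lowest and the other two lay just below the lowest vehicle library. Neutrophil markers, of which 9 of 13 passed the filter on low values, had a median of 0.46 in WGD-, with 8 of 9 above vehicle, and 0.09 in WGD+ (-0.018 after the length and GC correction). Adipocyte markers had -0.50 in WGD- and -0.47 in WGD+, with 11 of 11 negative over both forms; without YM-155 replicate 2 of WGD+ the WGD+ value was -0.23, and without vehicle replicate 2 of WGD- the WGD- value was -0.84. How much of the differences in single genes came with these lists was not tested.

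Besides Pecam1, the rule named Wnk4, Rad54b, Phf21b and Tex13 above vehicle and Rn45s, Rarres2 and Tgfbr1 below it in WGD- tumours. Wnk4, a kinase that regulates ion transporters, was at 2.83, 3.36 and 2.90 with vehicle and 4.31, 4.16 and 3.81 with YM-155 (1.06, SE 0.21, adjusted p 0.102). Rad54b, a helicase of homologous recombination, had 0.81 (SE 0.17), Phf21b, a PHD finger gene, 0.99 (SE 0.23) and Tex13 0.61 (SE 0.13). Rarres2, which encodes the adipokine chemerin, was at 4.64, 4.46 and 5.40 against 3.60, 2.48 and 3.28 (-1.71, SE 0.27, adjusted p 0.102). Tgfbr1, the type I receptor of TGF-beta, was at 6.79, 6.48 and 6.90 against 5.93, 5.89 and 5.56 (-0.93, SE 0.17, adjusted p 0.102). Vehicle and YM-155 libraries did not overlap for Wnk4, Rarres2 or Tgfbr1, which the rule required in this form. Rn45s, the precursor of ribosomal RNA, had -1.51 (SE 0.23). It took 1.91, 3.003 and 2.91% of CPM in vehicle and 0.892, 0.995 and 0.876% in YM-155 libraries of WGD-, and 0.840 to 1.73% in WGD+. The library kit selects poly(A) RNA.

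In WGD+ tumours alone, 334 genes passed the test. YM-155 raised 273 of them (2.07% of genes tested) and lowered 61 (0.463%). At an unadjusted p under 0.05 there were 1609 higher (12.2%) and 1345 lower (10.2%), and the median change was -0.017. The count was not stable to the choice of libraries. It was 0, 2 and 4 without vehicle replicate 2, 1 or 3 of WGD+, 10 without YM-155 replicate 2, 630 without replicate 1 and 1224 without replicate 3. Leaving out a WGD- library, which enters only through the shared spread, gave 2, 215 and 9 for vehicle replicates 1, 2 and 3. For YM-155 replicates 1, 2 and 3 of WGD- it gave 333, 16 and 307. The count was 261 with voom, 290 with quantile normalization and 316 with log2(CPM + 2). It was 1 without the filter on low genes, 1 with the 24 libraries of both hosts in the model, and 0 with plain empirical Bayes. Without the filter, with the 24 libraries, with plain empirical Bayes or without a WGD- library, the WGD+ change itself stays the same, so its direction could not move. With voom, quantile normalization, log2(CPM + 2) or a WGD+ library left out, all 334 genes kept their direction. After the length and GC correction 333 did. However, the genes had been called from these same libraries.

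The called genes were sorted by transcript length. Of the 264 called higher that have a length, 70.5% lay in the shortest 25% of transcripts (at most 2142 bases) and 4 in the longest 25% (at least 4757 bases). Of 58 called lower, 67.2% lay in the longest 25%. Across all genes the median change in WGD+ was 0.20 in the shortest 25% and -0.22 in the longest 25%, against 0.00 and 0.01 in WGD-. The median deviation of short minus long genes was 0.0996, 0.607 and -0.017 in the YM-155 libraries of WGD+ and -0.165, -0.180 and -0.229 in their vehicle libraries. In WGD- it ran from -0.190 to 0.133 with overlap of the treatments. With length and GC content regressed out of each library, 5 genes passed in WGD+, 5 higher and 0 lower, and of the called genes named here only Ndufb8 (0.65, adjusted p 0.04) and Cebpd (0.93, adjusted p 0.0028) still did. In the 6 WGD+ libraries this tilt by length moved with the treatment, and the 2 cannot be told apart.

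**Figure D3:**
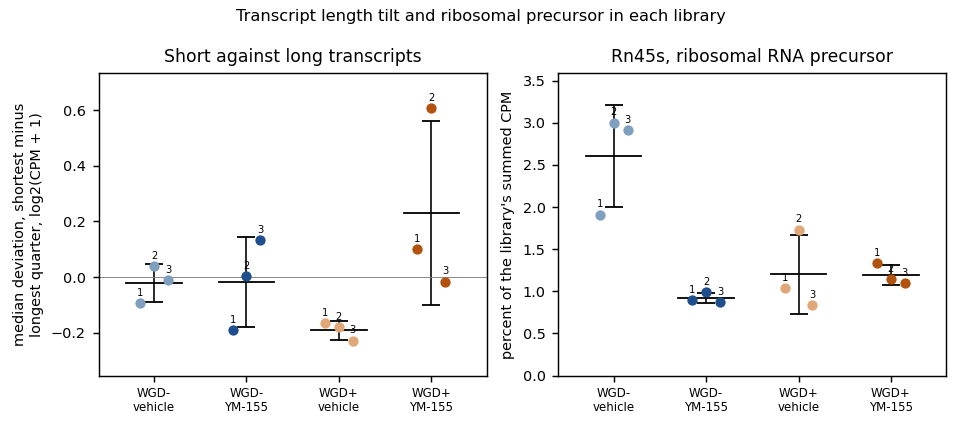
Median deviation of short minus long genes in log2 units and share of CPM taken by Rn45s in percent (y axes) for each of the 12 libraries (x axis, by form and treatment). YM-155 replicate 2 of WGD+ stands highest at 0.607, and Rn45s is highest in the WGD- vehicle libraries at 1.91 to 3.003%.

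Of 18 genes of the BCL2 family, 14 passed the filter on low values, of which 3 rose in WGD+ tumours and none fell, beside 2.07% of all genes called higher and 0.463% lower. Bax, the pore-forming effector of apoptosis, was at 7.04, 7.07 and 7.08 with vehicle and 7.61, 8.14 and 7.55 with YM-155 (0.70, SE 0.13, adjusted p 0.0314). In WGD- it was at 7.56, 7.46 and 7.54 against 7.62, 7.83 and 7.84. The treatments stood apart in both forms, which the rule of the pooled comparison required of Bax. Bad, a BH3-only protein that binds BCL-XL, was at 4.86, 4.87 and 4.83 against 5.53, 5.79 and 5.51 in WGD+ (0.76, SE 0.13, adjusted p 0.0294), and at 5.14, 5.27 and 5.06 against 5.18, 5.02 and 5.35 in WGD-, where the groups overlapped. Bok, an effector related to Bax, was at 4.60, 4.56 and 4.69 against 5.12, 5.99 and 5.40 in WGD+ (0.89, SE 0.19, adjusted p 0.036). In WGD- it was at 5.34, 4.91 and 5.26 against 4.002, 4.29 and 4.39, with no overlap and the opposite order (-0.94, SE 0.19, adjusted p 0.11). The effects on Bok differed between forms by 1.83 (SE 0.27, adjusted p 0.0139), and the promoters of these 3 genes are printed above.

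Antiapoptotic members did not pass: Bcl2l1, which encodes BCL-XL, had 0.42 (adjusted p 0.124) in WGD+, Mcl1 had -0.13 and Bcl2 had 0.095. The median of the family was 0.18 in WGD+, 0.08 after the length and GC correction. None of the 3 passed with that correction, nor without YM-155 replicate 2 of WGD+, and with the correction the values were 0.24 for Bax, 0.47 for Bad and 0.53 for Bok. In leave-one-out fits Bax, Bad and Bok passed in 5, 7 and 5 of 12. No caspase or apoptosome gene passed, and their median was 0.02. Apaf1, the apoptosome scaffold, had -0.38 and Htra2, a mitochondrial protease, 0.29.

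Phlda3, a p53 target that restrains AKT, was the 1 called gene among 20 p53 targets, beside 2.07% of all genes called higher. It was at 7.92, 7.89 and 7.89 with vehicle and 8.55, 9.12 and 8.53 with YM-155 in WGD+ (0.84, SE 0.13, adjusted p 0.0253), and at 8.28, 8.29 and 8.19 against 8.03, 8.11 and 7.89 in WGD-. The YM-155 libraries of Phlda3 lay above all vehicle libraries in WGD+ and below them in WGD-, and the difference of effects was 1.08 (SE 0.19, adjusted p 0.0388). As a list, p53 targets had a median of -0.18 in WGD+ with 14 of 20 below vehicle, but -0.015 with 11 of 20 below without YM-155 replicate 2 of WGD+, and of 0.19 in WGD- with 15 of 20 above. The Phlda3 value in WGD+ was 0.45 and the difference of effects 0.66 after the length and GC correction. Cdkn1a, the p21 inhibitor of cyclin-dependent kinases, had 0.29 in WGD+ and 0.22 in WGD-, neither called.

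Brca2, a DNA repair gene, fell in WGD+ tumours, as 1 of 19 genes of the DNA damage list, beside 0.463% of all genes called lower. Its levels were 4.79, 4.78 and 5.004 with vehicle and 4.29, 3.98 and 4.18 with YM-155 (-0.71, SE 0.14, adjusted p 0.0324). The list had 14 of 19 members below vehicle with a median of -0.15, but 8 of 19 and a median of 0.03 after the length and GC correction, where Brca2 had -0.30. Without YM-155 replicate 2 of WGD+ the median of the list was -0.060. H2afx, the histone phosphorylated at DNA breaks, had 0.67 (adjusted p 0.0528) and Gadd45b, a stress gene, 0.79 (adjusted p 0.0512). In G2/M, Cdc20 had 0.40 (adjusted p 0.0766) and Ube2c, the ubiquitin-conjugating enzyme of mitotic exit, 0.36, whereas Mki67, a proliferation marker, had -0.29 (0.07 after the length and GC correction) and Bub1, a checkpoint kinase, -0.30. The G2/M median was 0.04 in WGD+ and -0.02 under quantile normalization.

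By the rule for named genes, the largest called increases in WGD+ were those of Krt42, S100a4, Nrtn and Timm13. Krt42, a type I keratin, was at 4.50, 3.91 and 4.85 with vehicle and 5.65, 6.61 and 6.37 with YM-155 (1.79, SE 0.27, adjusted p 0.0294), and its value in WGD- was -0.09. S100a4, a calcium-binding protein of motile cells, was at 4.71, 4.51 and 4.63 against 5.63, 5.93 and 5.55 (1.09, SE 0.19, adjusted p 0.0294). Nrtn, the growth factor neurturin, was at 4.30, 4.35 and 4.57 against 5.28, 5.79 and 5.23 (1.03, SE 0.20, adjusted p 0.0324). For each of these genes the YM-155 libraries lay above all vehicle libraries of WGD+, which the rule required. Timm13, a chaperone of the mitochondrial intermembrane space, was at 6.34, 6.32 and 6.28 against 6.97, 7.91 and 7.07 (1.00, SE 0.18, adjusted p 0.032), with replicate 2 highest.

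The largest called decreases were those of Adamts1, Psd2, Firre and Xist. Adamts1, a secreted protease of the matrix, was at 6.68, 6.81 and 6.41 with vehicle and 5.36, 4.63 and 5.41 with YM-155 (-1.50, SE 0.26, adjusted p 0.032), and had -0.61 in WGD-. Psd2, an exchange factor for ARF6, was at 3.60, 2.82 and 3.40 against 2.29, 1.51 and 1.95 (-1.36, SE 0.35, adjusted p 0.0487). Firre, a noncoding RNA of the X chromosome, was at 4.44, 4.33 and 4.07 against 3.69, 2.47 and 3.12 (-1.19, SE 0.27, adjusted p 0.0379). None of these groups overlapped, which the rule required. Xist, the noncoding RNA that silences an X chromosome, was at 9.13, 9.29 and 9.43 against 8.67, 7.54 and 8.33 (-1.10, SE 0.23, adjusted p 0.0371). Tsix lies antisense to Xist, and since the strand setting of the counting is not given in the sources used here, reads of the pair cannot be told apart.

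Of the 8 largest, Krt42 passed in 8 of the 12 leave-one-out fits, S100a4 in 7, Nrtn and Timm13 in 6, Adamts1, Firre and Xist in 5 and Psd2 in 4. After the length and GC correction Nrtn had 0.43, Timm13 0.64 and Xist -0.60. Of the genes named in the pooled comparison, Bax and the following passed in WGD+: Tnfsf9 rose by 0.69 (adjusted p 0.0475), Flt1 fell by 0.73 (adjusted p 0.036) and Kcne3 fell by 0.94 (adjusted p 0.0457). Cebpd, a transcription factor of acute responses, had the smallest p in WGD+ and is outside the rule, named after its values were seen. It was at 6.83, 6.68 and 6.70 against 7.50, 7.89 and 7.53 (0.90, SE 0.11, adjusted p 0.00617), and had 0.03 in WGD-. Cebpd passed in 11 of the 12 leave-one-out fits, Sp1 and Flt1 in 5, Kcne3 in 2 and Tnfsf9 in 1. After the length and GC correction Sp1 had -0.35 and Tnfsf9 0.42. Sp1, also outside the rule, was at 6.75, 6.83 and 6.78 against 6.41, 5.80 and 6.09 (-0.68, SE 0.16, adjusted p 0.0379), and had 0.05 in WGD-.

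**Figure D4:**
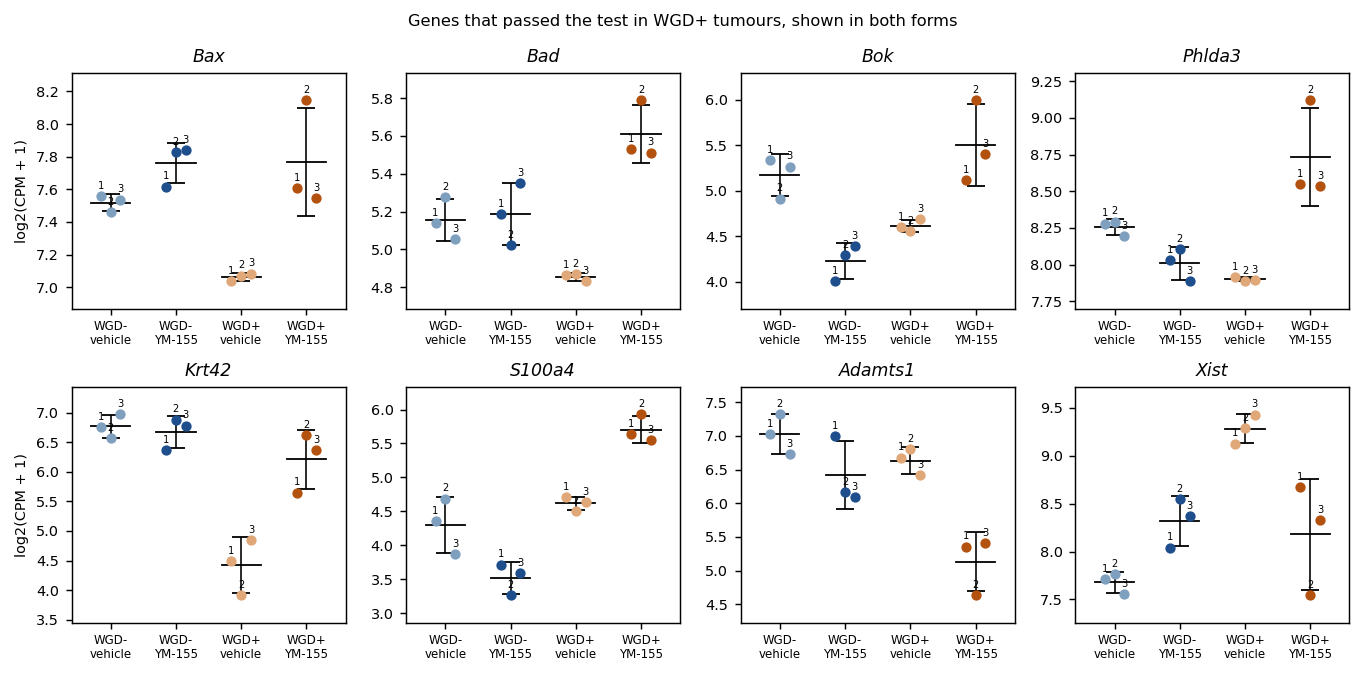
Level in log2(CPM + 1) (y axis) of Bax, Bad, Bok, Phlda3, Krt42, S100a4, Adamts1 and Xist in each library, by form and treatment (x axis); points are numbered by replicate and bars are the mean ± SD of 3. In WGD+ tumours Bok lies at 4.56 to 4.69 with vehicle and 5.12 to 5.99 with YM-155, and in WGD- tumours at 4.91 to 5.34 and 4.002 to 4.39.

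Keratins other than Krt42 were measured in the epithelial list, of which none of 12 passed in WGD+. Krt17 had 1.20 (adjusted p 0.0642), Krt14 0.93 and Krt8 0.67, and the list had a median of 0.30 in WGD+, 0.077 with 7 of 12 above vehicle after the length and GC correction, and -0.35 in WGD-. Among the claudins of the list, Cldn3 had -1.02 and Cldn4 -0.81 in WGD-, where neither passed. For 10 of 12 members the value was higher in WGD+ than in WGD-, and none passed the test of that difference. Of 6 skin markers, 3 passed the filter on low values, with a median of 0.64 in WGD+ (3 of 3 above vehicle, and 0.29 after the correction) and -0.76 in WGD- (3 of 3 below). Their mean level was 2.17 to 2.30 with vehicle and 2.67 to 3.02 with YM-155 in WGD+, without overlap, and 2.92 to 3.47 against 2.38 to 3.07 in WGD-. The part of skin transcripts in the keratin values was not tested.

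Other lists carried further calls in WGD+, where 2.07% of all genes were called higher. Among 14 cytosolic ribosome genes 2 rose, Rps2 by 0.60 (adjusted p 0.036) and Rpl8 by 0.54 (adjusted p 0.0447), and 13 of 14 lay above vehicle with a median of 0.38, which was 0.06 with 8 of 14 above under quantile normalization and 0.10 after the length and GC correction. Of 14 respiratory chain genes 3 rose, Ndufb8 (0.73, adjusted p 0.0314), Cox4i1 (0.65, adjusted p 0.036) and Ndufv1 (0.42, adjusted p 0.0466), with a median of 0.30 that was 0.05 after the correction and 0.16 without YM-155 replicate 2 of WGD+. Without that library no gene of either list passed. After the correction Rps2 had 0.25, Rpl8 0.14, Cox4i1 0.21, Ndufv1 0.16 and Sdf2l1 0.33. Fth1, the ferritin heavy chain that stores iron, rose by 0.61 (adjusted p 0.0379) as 1 of 15 NRF2 targets. In that list Hmox1, the haem oxygenase, had 0.59 (adjusted p 0.0788). Tapbp rose by 0.57 (adjusted p 0.0462) as 1 of 12 MHC class I genes, and Sdf2l1, a chaperone partner of the endoplasmic reticulum, by 0.68 (adjusted p 0.036) as 1 of 10 unfolded protein response genes.

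Cholesterol synthesis genes lay low in WGD+ tumours with YM-155. Of 13 measured, 12 were below vehicle with a median of -0.45, 9 had an unadjusted p under 0.05, where the background of lower genes was 10.2%, and none passed. Those 9 were 4 without YM-155 replicate 2 of WGD+, and 5 after the length and GC correction. Insig1, the sterol sensor that retains SREBP, was at 5.57, 5.61 and 6.06 with vehicle and 5.35, 5.16 and 4.56 with YM-155 (-0.72, adjusted p 0.0586). Cyp51, a demethylase of the pathway, was at 6.76, 6.74 and 7.12 against 6.62, 6.40 and 6.24 (-0.45, adjusted p 0.0656). YM-155 libraries of both genes lay below all vehicle libraries. After the length and GC correction the list had a median of -0.33 with 12 of 13 below. In WGD- its median was 0.04.

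The effects of YM-155 in WGD+ and WGD- were then compared by an interaction term. It passed for 54 genes, 44 with the higher effect in WGD+ (0.334%) and 10 with the lower (0.0759%), and at an unadjusted p under 0.05 for 1308 (9.93%) and 1187 (9.01%). The median difference was -0.0066. Without vehicle replicates 1, 2 and 3 of WGD- the interaction passed for 7, 11 and 1 genes, and for 7 without YM-155 replicate 2 or 3 of WGD-. Without vehicle replicates 1, 2 and 3 of WGD+ it passed for 0, 1 and 10 genes, and without the YM-155 replicates of WGD+ for 192, 28 and 366. The count was 37 after the length and GC correction and 28 with voom. The 8 named genes had values of opposite sign in the forms. Notum, which inactivates Wnt ligands, was at 4.86, 4.44 and 4.40 with vehicle and 3.65, 3.52 and 2.48 with YM-155 in WGD-, and at 2.78, 2.71 and 3.30 against 3.46, 4.09 and 4.33 in WGD+ (difference 2.38, SE 0.42, adjusted p 0.0434). Timp1, an inhibitor of matrix metalloproteinases, was at 5.55, 6.74 and 5.73 against 5.11, 4.62 and 4.77 in WGD-, and at 5.14, 5.41 and 5.40 against 5.80, 6.11 and 6.30 in WGD+ (1.93, SE 0.36, adjusted p 0.0466).

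Wfdc2 and S100a4 shared this order, with means below vehicle in WGD- and above it in WGD+. Wfdc2, which encodes a secreted protein of epithelia, was at 7.69, 7.77 and 7.99 against 7.03, 7.06 and 6.78 in WGD-. In WGD+ Wfdc2 was at 5.80, 5.62 and 6.44 against 6.41, 7.33 and 7.17, where 1 vehicle library overlapped (difference 1.88, adjusted p 0.0465). S100a4 in WGD- was at 4.35, 4.69 and 3.87 against 3.71, 3.26 and 3.59 (difference 1.87, SE 0.27, adjusted p 0.0139). Xist went the other way, from 7.71, 7.77 and 7.55 to 8.04, 8.55 and 8.37 in WGD- (difference -1.74, SE 0.32, adjusted p 0.0466). Wnk4 in WGD+ was at 4.39, 4.26 and 4.14 against 4.03, 3.61 and 3.44 (difference -1.63, SE 0.29, adjusted p 0.0434). The differences for Phf21b and for Alg6, a glucosyltransferase of N-glycan assembly, were -1.61 (adjusted p 0.0466) and -1.21 (adjusted p 0.0434). After the length and GC correction, the tests of Notum, S100a4, Bok, Phlda3, Wnk4 and Phf21b still passed, with adjusted p from 0.028 to 0.0496. Those of Timp1, Wfdc2, Xist and Alg6 did not. Of 12 leave-one-out fits, S100a4 passed in 10, Bok in 9, Wnk4 in 6 and Timp1 in 5. Notum, Xist and Phlda3 passed in 4, Wfdc2 and Phf21b in 3 and Alg6 in 2. The interaction passed for 0 genes without the filter on low genes, with 24 libraries or with plain empirical Bayes.

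**Figure D5:**
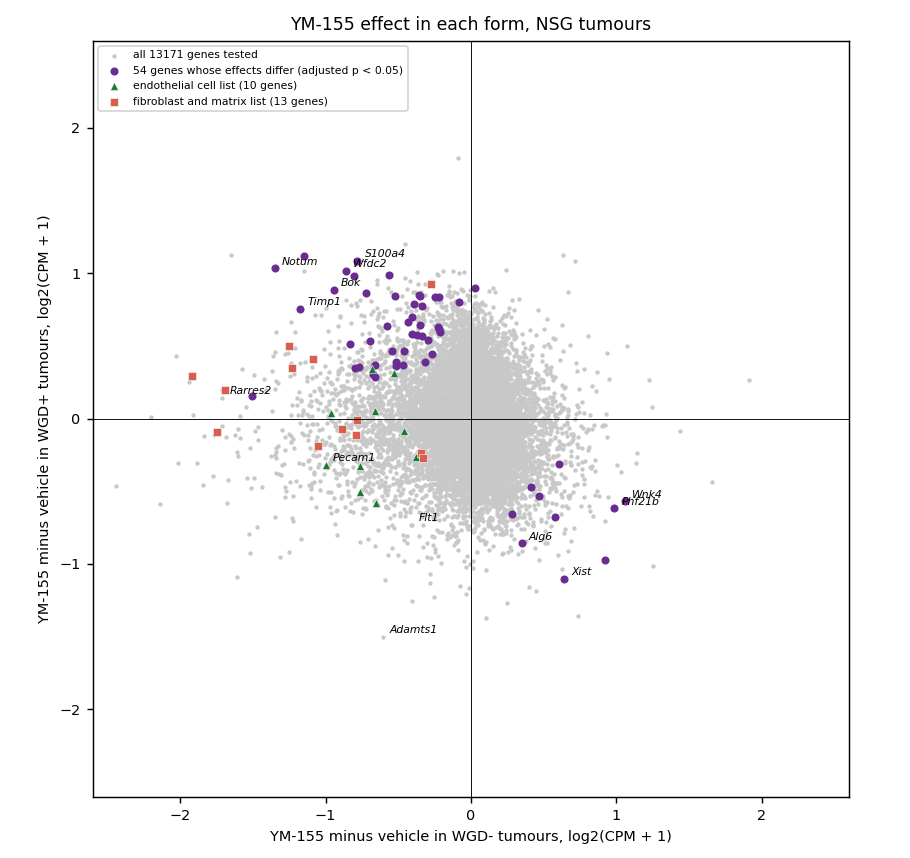
Change with YM-155 in WGD- tumours (x axis) against the change in WGD+ tumours (y axis), both in log2 units, for the 13171 genes tested; the 54 genes whose effects differ, the endothelial markers and the fibroblast markers have their own symbols. Fibroblast markers lie to the left, with a median of -1.05 in WGD- and -0.01 in WGD+.

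Last, the pooled effect in NSG was set beside that in A/J, an immunocompetent strain, in a model of the 24 libraries of the experiment and 13826 genes. No gene passed the test of a difference between the hosts: limma called 0 higher (0%) and 0 lower (0%), with a smallest adjusted p of 0.501, 0 by voom, and 1306 genes (9.45%) at an unadjusted p under 0.05. The count was 176 without YM-155 replicate 2 of A/J WGD+, 3 without vehicle replicate 3 and 4 without YM-155 replicate 2 of A/J WGD-, and 1 without the filter on low genes. For Birc5 the difference, A/J minus NSG, was -0.17 (adjusted p 0.746). Among the named genes were Slc44a1, a choline transporter, with 1.29, Adamts1 with 1.38, Psme1, a proteasome activator subunit, with -0.998 and Prdx5, a peroxiredoxin, with -0.80, none of which passed.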

How the data were processed

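Tumour RNA from 12 libraries was measured by stranded mRNA sequencing. The authors deposited TMM-scaled log2(CPM + 1) values per gene, per the file headers; reads were aligned with STAR 2.5.1b to mm10 and handled with edgeR, per the submitters' processing notes (annotation and counting tool not given in the sources used here). Values were whole multiples of 1 read (100% within 0.1 read), from which the depth was recovered. Of 24360 table entries, 27 with date-like names were left out. Genes above 1 CPM in at least 3 of the 12 libraries were kept (13171), and limma 3.58.1 (R 4.3.3; trend and robust empirical Bayes) was fitted to the deposited values: treatment plus form for the pooled comparison, group means with an interaction for each form, and 24 libraries for the host difference. P-values were adjusted by Benjamini-Hochberg over all genes tested, with 0.05 as threshold. Transcript length and GC content came from the reference annotation and were known for 97.1% of genes.

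The comparison and the 37 gene lists were chosen with earlier results of these data known. Named were the survivin, IAP and passenger complex genes and Slc35f2; in each comparison the called genes with the largest change (4 each way for a form or a difference) whose groups do not overlap, a condition not set for differences, with a mean level of at least 3, filled up to 4 by smallest p where fewer were called; and in each list up to 4 called members, or 2 by smallest p where none was called. Any other gene, including further list members, was named after its values were seen. Replicate numbers were not treated as pairs in the main fits. Alternatives were the pseudocount, the filter, quantile normalization, voom, a replicate block, plain empirical Bayes, 24 libraries in the model and leaving out each library. A length and GC correction and the omission of both least correlated libraries were added after seeing the data.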

Additional observations from a re-analysis of the deposited data

Results flagged for a closer look

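In the main fit the effect of YM-155 differed between WGD+ and WGD- tumours, tested by the interaction term in limma, for 54 genes. The count was 0 without the filter on low genes, with 24 libraries or with plain empirical Bayes. Of the genes named, the difference (WGD+ minus WGD-, log2 units) was 2.38 for Notum, 1.93 for Timp1, 1.88 for Wfdc2, 1.87 for S100a4, 1.83 for Bok and 1.08 for Phlda3. It was -1.74 for Xist, -1.63 for Wnk4, -1.61 for Phf21b and -1.21 for Alg6.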

How the results depend on the processing

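Limits come first: with 3 libraries a group, the counts of called genes moved with single libraries and with how the spread was estimated, and the cause was not tested. Over both forms, leaving out 1 library gave 0 to 1 genes. In WGD- it gave 0 to 10, the length and GC correction 1, and the fit without both least correlated libraries 7, also 7 with the correction added. In WGD+, against 334, it gave 0 to 1224, no filter 1, 24 libraries 1, plain empirical Bayes 0, the length and GC correction 5, both libraries left out 8, and 3 with the correction added. For the difference between forms, against 54, it gave 0 to 366, no filter 0, 24 libraries 0, plain empirical Bayes 0, voom 28, both libraries left out 20, and 0 with the correction added. For the host difference it gave 0 to 176, and no filter 1. Deviations of same-numbered libraries from their group means correlated at 0.051, -0.215 and -0.079 in WGD- and 0.124, -0.045 and 0.109 in WGD+. With 3 libraries a group, these values cannot decide whether the numbers mark pairs. With the replicate block the counts were 0 over both forms, 5 in WGD-, 367 in WGD+, 25 for the difference between forms, and 3 in WGD+ with block, length and GC together. Of 818 values under alternatives for named genes that had passed, 491 no longer passed and 0 changed sign. No filter, 24 libraries, plain empirical Bayes and the replicate block keep the change itself, so there the sign could not move. Over all 8383 values of named genes, most of which had not passed, 75 newly passed and 25 changed sign by at least the SE of the main fit. Smaller changes of sign were not counted where neither fit passed, and are left out of what follows. Changes of sign came mostly with the length and GC correction: Birc6 0.10 over both forms, 0.16 in WGD+ (0.16 with the block) and 0.11 for the difference; Aurkb -0.089 for the difference; Mki67 0.073 in WGD+ (0.073 with the block); Cd14 -0.00996 in WGD+ (-0.00996 with the block); Pdgfra 0.016 in WGD+ (0.016 with the block); Apoa2 -0.16 over both forms, -0.30 in WGD+ (-0.30 with the block) and -0.29 for the difference. With both libraries also left out they were Birc6 0.12, 0.15 and 0.061, Mki67 0.086, Ldha -0.025, Ankrd37 -0.13, Mcpt4 -0.14 and Mylpf -0.11. Ankrd37 was -0.043 without both libraries alone, and Slc2a1 in WGD- ranged from -0.36 without YM-155 replicate 1 to 0.0080 without YM-155 replicate 3 of WGD-.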
